A study of Caenorhabditis elegans with 6 samples.

Results

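Aquaporins are membrane channels that let water, and in some cases glycerol and other small solutes, cross a membrane down its gradient. Worm aquaporins fall by sequence into water channels, glycerol-conducting aquaglyceroporins and a divergent group related to the vertebrate AQP11 and AQP12. Members of the family have been placed in the worm gut, epidermis and excretory canal, tissues that face food, the outside or the body fluid. RefSeq names 12 aqp genes in Caenorhabditis elegans, and 11 of them were rows among the 14605 worm genes of the count table, found by matching sequence names to RefSeq WBcel235 locus tags. These were 7 of the genes aqp-1 to aqp-8 and all 4 of aqp-9 to aqp-12; aqp-3 was not analysed here.

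The study sequenced RNA of 4N cells, which have replicated their DNA, from first-stage larvae, in pools of 500 cells. There were 3 libraries of intestinal cells and 3 of non-intestinal cells, all from animals carrying ccyIS27. In this transgene the promoter of elt-2, a gut transcription factor gene, drives 2 reporters joined by P2A, mCherry-PH at membranes and H2B-mCherry on chromatin. CEL-seq counts transcripts at their 3′ ends, so a count does not grow with transcript length. Levels are worm gene counts scaled to one common library total (CPM) with TMM factors, and lists of 3 values run in the order of replicates 1, 2 and 3.

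A library held 1222704 to 21040813 worm gene counts, and in each group replicate 3 held the fewest. The brush border actin gene act-5 averaged 4205 ± 413 CPM in the intestinal set and 97.1 ± 57.7 CPM in the non-intestinal set (SD, n = 3 each). Of the tested intestine markers 13 of 13 were called higher, beside 13.5% of all tested genes. That list was chosen with earlier results of these data known and holds elt-2, so it is no independent check. Replicates are labelled as biological, but separate cultures are not stated, so p-values measure the spread between these samples. In pools of cells, fewer cells of a type and less RNA per cell cannot be told apart.

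The genes aqp-11, aqp-10 and aqp-1 were higher in intestinal than in non-intestinal cells. These 3 and also aqp-2 and aqp-7 had counts in all 6 libraries. In the non-intestinal libraries most aquaporin counts were of aqp-2 and aqp-7, which were also high in intestinal replicates 1 and 2. Of the 11 genes, 7 had counts high enough to be tested with edgeR's quasi-likelihood test over 9203 genes. Of these 7, 3 were called higher in intestinal cells at an adjusted p under 0.05 and none lower, where 13.5% of all tested genes were called higher and 7.64% lower. With the replicate number as a block, 4 were called higher, now with aqp-4, and 1 lower, aqp-2, where 15.1% of all tested genes were called higher and 9.86% lower. The median log2 fold change of the 7 was 3.13, against −0.34 for all tested genes. The groups did not overlap for 4 of the 7, namely aqp-1, aqp-10, aqp-11 and aqp-2, and for 45.4% of all tested genes.

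**Figure D1:**
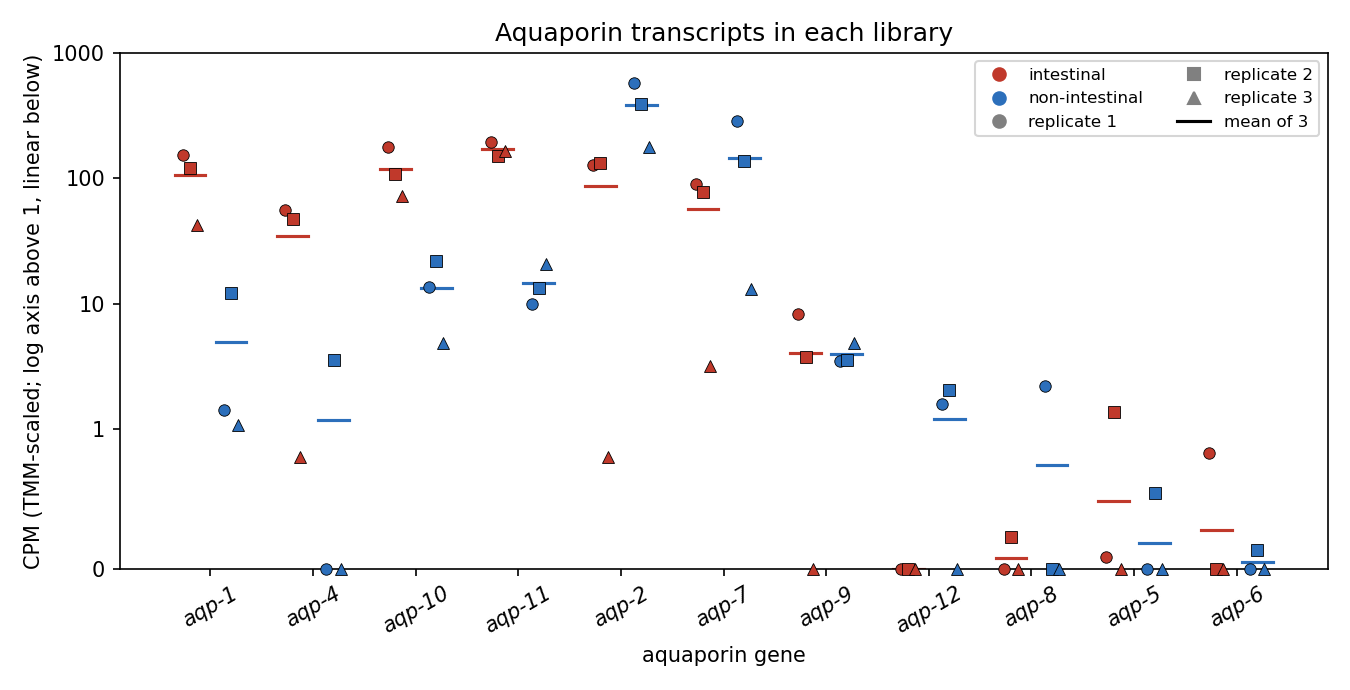
CPM of the 11 aqp genes in each library (log axis above 1, linear below), intestinal libraries in red left of non-intestinal libraries in blue, with a mark for each replicate and a line at the mean of 3. The red marks of aqp-1, aqp-10 and aqp-11 all lie above the blue marks, and those of aqp-2 all lie below them. All marks of aqp-5, aqp-6, aqp-8 and aqp-12 lie between 0 and 2.23 CPM.

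The gene aqp-11 (ZK525.2), of the divergent group, had the smallest SE among the tested members. The intestinal libraries had 194, 152 and 166 CPM and the non-intestinal ones 10.04, 13.5 and 20.7 CPM. The lowest intestinal library stood far above the highest non-intestinal one. The averages were 171 ± 21.4 CPM in the intestinal set and 14.7 ± 5.41 CPM in the non-intestinal set (SD, n = 3 each). The log2 fold change was 3.55 with an SE of 0.58 (edgeR adjusted p = 0.0022), and 3.46 to 4.09 when 1 library was left out. It was called in each of the 16 alternative settings tried. The gene lies on chromosome III at 13673280 to 13674739 (WBcel235, plus strand), with 6 exons in its 1 annotated transcript and no other annotated gene overlapping it.

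The gene aqp-10 (ZK1321.3), also of the divergent group, had 177, 109 and 72.9 CPM in the intestinal libraries and 13.7, 21.8 and 4.89 CPM in the non-intestinal ones. The groups did not overlap, and in both the shallow replicate 3 was the lowest. The averages were 120 ± 52.9 CPM in the intestinal set and 13.5 ± 8.46 CPM in the non-intestinal set (SD, n = 3 each). Its log2 fold change was 3.13 with an SE of 0.72 (edgeR adjusted p = 0.012). The call was lost without intestinal replicate 1 (edgeR adjusted p = 0.054), and without non-intestinal replicate 2 the log2 fold change was 3.94. The gene lies on chromosome II at 9768458 to 9769847 (WBcel235, minus strand), with 6 exons and no overlapping gene.

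The gene aqp-1 (F32A5.5) encodes an aquaglyceroporin, known in the worm as a glycerol channel whose transcript falls on a high-glucose diet. It had 154, 121 and 42.5 CPM in the intestinal libraries and 1.43, 12.3 and 1.09 CPM in the non-intestinal ones. The groups did not overlap, and non-intestinal replicate 2 was well above the other libraries of its group. The averages were 106 ± 57.6 CPM in the intestinal set and 4.93 ± 6.36 CPM in the non-intestinal set (SD, n = 3 each). Its log2 fold change was 4.34 with an SE of 1.014 (edgeR adjusted p = 0.013). Without non-intestinal replicate 2 it was 6.60, and with the replicate number as a block 5.00 (edgeR adjusted p = 0.0025 and 0.0019). The 6.60 rests on few non-intestinal counts, 9 in replicate 1 and 2 in replicate 3, so its size is uncertain.

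The 3′ end of aqp-1 is shared with another gene. It spans 7235828 to 7238349 of chromosome II (WBcel235, minus strand), with 5 or 6 exons, and 93 bases at its 3′ end overlap ctsa-3.1 on the other strand. Its annotated 3′ untranslated region is 89 to 100 bases long. The counting is not stated to use strand, so reads there cannot be assigned with certainty. The intestinal libraries held 1859, 2107 and 53 counts of aqp-1 and the non-intestinal ones 9, 270 and 2. For ctsa-3.1 (F32A5.3) the intestinal libraries held 1575, 1446 and 110 counts and the non-intestinal ones 1, 44 and 0.

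The water channel gene aqp-4 (F40F9.9), placed in the worm gut, was high in intestinal replicates 1 and 2 and nearly without counts in intestinal replicate 3. The intestinal libraries held 674, 817 and 1 counts and the non-intestinal ones 0, 79 and 0. As levels these were 56.0, 47.1 and 0.801 CPM in the intestinal libraries, against 0, 3.59 and 0 CPM in the non-intestinal ones. The groups overlapped through intestinal replicate 3. The log2 fold change of 4.598, with an SE of 1.61, did not pass the test (edgeR adjusted p = 0.066). With the replicate number as a block it was 5.80 and passed (edgeR adjusted p = 0.019). It also passed without intestinal replicate 3 and without non-intestinal replicate 2 (edgeR adjusted p = 0.030 and 0.024). Without non-intestinal replicate 2 the other non-intestinal libraries are at 0 counts, and the fitted log2 value of 11.1 is no bound. It passed in 6 of the 15 alternatives that tested it, with an adjusted p from 0.00018 to 0.17. The gene spans 9737556 to 9739740 of chromosome V (WBcel235, plus strand, 7 exons), and 39 bases of its 3′ end overlap marc-1 on the same strand, so counts there could belong to either.

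The gene aqp-2 (C01G6.1), an aquaglyceroporin by sequence, had the highest level of the family in each non-intestinal library. It had 128, 132 and 0.801 CPM in the intestinal libraries and 581, 392.4 and 177 CPM in the non-intestinal ones. Each intestinal library lay below each non-intestinal one. The averages were 87.1 ± 74.8 CPM in the intestinal set and 383 ± 202 CPM in the non-intestinal set (SD, n = 3 each). The log2 fold change of −2.13, with an SE of 1.06, did not pass the test (edgeR adjusted p = 0.18). With the replicate number as a block it was −2.95 with an SE of 0.82 and passed (edgeR adjusted p = 0.024). Over 16 alternatives its adjusted p ranged from 0.0053 to 0.34, and it passed in 3. The gene spans 9259048 to 9261981 of chromosome II (WBcel235, minus strand).

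The gene aqp-7 (M02F4.8), another aquaglyceroporin by sequence, had 90.3, 78.2 and 3.21 CPM in the intestinal libraries and 287, 137 and 13.05 CPM in the non-intestinal ones. The groups overlapped, and replicate 3 was low in both. Within each replicate number the intestinal library was the lower one, with a ratio of intestinal to non-intestinal CPM of 0.315, 0.571 and 0.246. The log2 fold change was −1.34 with an SE of 1.09 (edgeR adjusted p = 0.42), and −1.43 with an SE of 0.52 under the replicate block (edgeR adjusted p = 0.065). Without non-intestinal replicate 1 it was −0.34. The gene spans 3025063 to 3026974 of chromosome X (WBcel235, plus strand).

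**Figure D2:**
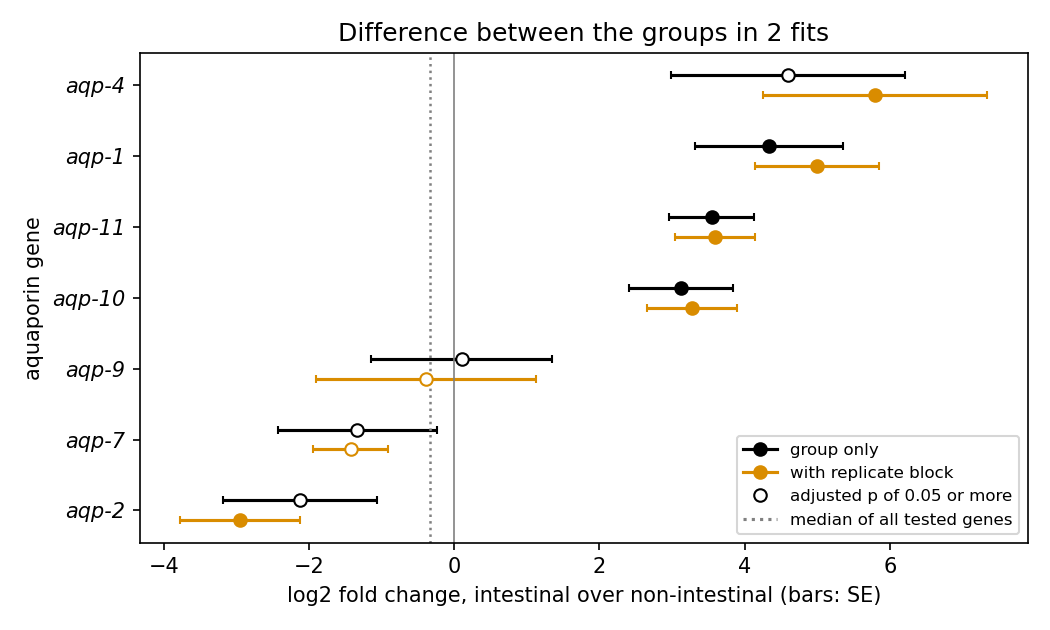
Log2 fold change, intestinal over non-intestinal, with its SE for the 7 tested aqp genes, fitted by group alone (black) and with the replicate number as a block (orange); open marks did not pass an adjusted p of 0.05, and the dotted line is the median of all tested genes, −0.34. The marks of aqp-4, aqp-1, aqp-11 and aqp-10 lie above 3 in both fits, those of aqp-7 and aqp-2 lie below −1, and the marks of aqp-4 and aqp-2 are filled in the blocked fit alone.

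The other 5 genes had few counts. The gene aqp-9 (K07A1.16) was tested, and had 8.31, 3.802 and 0 CPM in the intestinal libraries and 3.51, 3.54 and 4.89 CPM in the non-intestinal ones. The libraries interleaved, and the log2 fold change was 0.10 with an SE of 1.25 (edgeR adjusted p = 0.96). It was −0.54 when libraries were scaled by their totals alone. The 3′ end of aqp-9 overlaps K07A1.15 on the other strand by 120 bases, so reads there cannot be assigned with certainty. The gene aqp-12 (Y57A10A.35) had 0 counts in each intestinal library and 10, 45 and 0 counts in the non-intestinal ones. Set against a floor of 3 counts over the summed intestinal libraries, both scaled by TMM, its summed counts were at least 18.6-fold lower in intestinal cells, and at least 12.6-fold without non-intestinal replicate 2. These bounds cover counting error only, and hold only if counts are of single molecules, which is not stated. In intestinal replicate 3 alone the floor was 2.40 CPM, above the highest non-intestinal level of aqp-12, 2.04 CPM. The exact two-sided permutation p of the difference in CPM of aqp-12 was 0.4, and 3 libraries against 3 cannot give one below 0.1. Its 3′ end overlaps pqn-87 on the other strand by 72 bases, and pqn-87 averaged 448 ± 67.2 CPM in the intestinal set and 879 ± 294 CPM in the non-intestinal set (SD, n = 3 each).

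The gene aqp-8 (K02G10.7), an aquaporin of the excretory canal, had counts of 0, 4 and 0 in intestinal cells, against 14, 0 and 0 in non-intestinal cells. For aqp-5 (C35A5.1) the intestinal libraries held 1, 24 and 0 counts and the non-intestinal ones 0, 12 and 0. For aqp-6 (C32C4.2) the intestinal libraries held 10, 0 and 0 counts and the non-intestinal ones 0, 3 and 0. None of these 3 genes had counts in all libraries of a group, and no difference was detectable at this depth (exact two-sided permutation p from 0.7 to 1.0). A library without a count could still hold up to 3, or 2.40 CPM in intestinal replicate 3 and 1.62 CPM in non-intestinal replicate 3, by counting error only. This too holds only if counts are of single molecules.

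Summed over the family, the groups overlapped in level and differed in make-up. The 11 genes together had 809, 645 and 286 CPM in the intestinal libraries and 901, 587 and 221 CPM in the non-intestinal ones. These sums interleaved, and in both groups replicate 3 was the lowest. The genes aqp-1, aqp-4, aqp-10 and aqp-11 together made up 71.8%, 66.6% and 98.6% of the aquaporin counts in the intestinal libraries, against 2.80%, 8.72% and 12.04% in the non-intestinal ones. The genes aqp-2 and aqp-7 made up 27.01%, 32.6% and 1.40% in the intestinal libraries, against 96.4%, 90.2% and 85.7% in the non-intestinal ones. These sets of genes were put together after their values had been seen, so the shares are a description and were not tested.

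**Figure D3:**
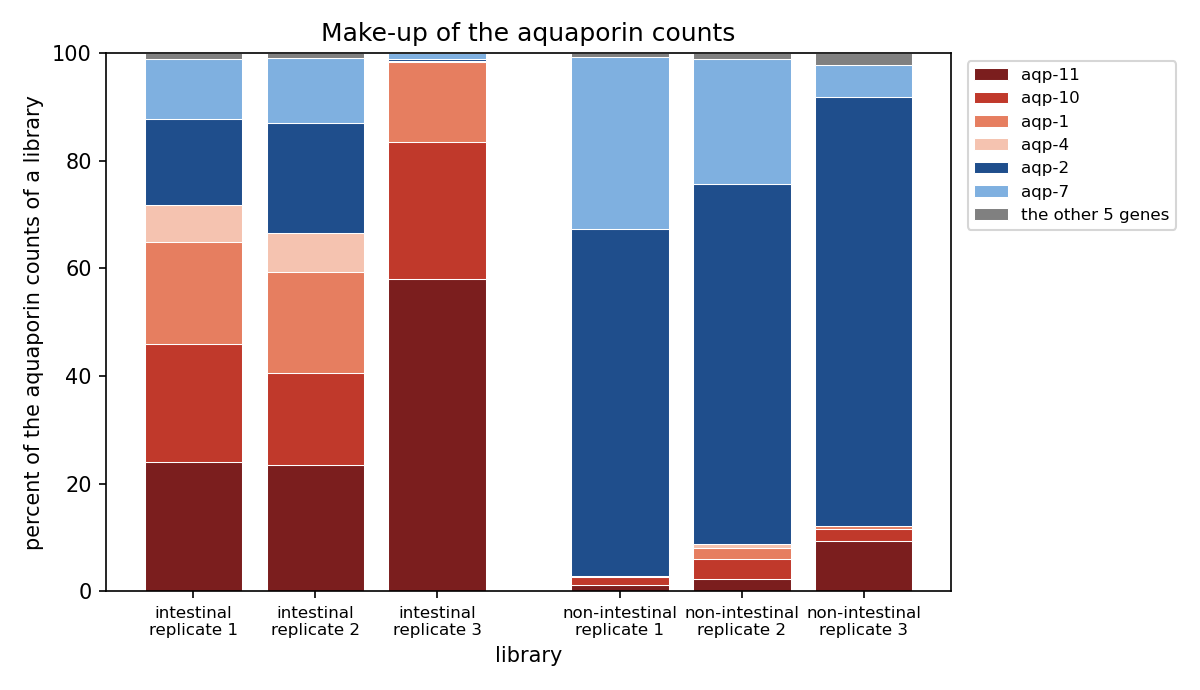
Percent of the aquaporin counts of each library taken by each gene, with intestinal libraries at the left. In the intestinal libraries the red shades of aqp-11, aqp-10, aqp-1 and aqp-4 fill from 66.6% to 98.6%, and in the non-intestinal libraries the blue shades of aqp-2 and aqp-7 fill from 85.7% to 96.4%.

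Intestinal replicate 3 stood apart within its group for some of these genes and not for others. At the mean level of intestinal replicates 1 and 2 this library would have held 163 counts of aqp-2, 64.3 of aqp-4 and 105 of aqp-7. It held 1, 1 and 4, with exact 95% Poisson intervals of 0.0253 to 5.57 for a count of 1 and 1.09 to 10.2 for a count of 4. These intervals cover counting error only, and hold only if counts are of single molecules, which is not stated. Libraries of a group differed by far more than counting error across genes. Of 3003 tested genes with at least 50 counts at that level, 15 were as low as aqp-2 or lower, 39 as low as aqp-4 and 85 as low as aqp-7, while the median gene was at 63.2% of the level. The genes aqp-1, aqp-10 and aqp-11 were at 30.8%, 50.9% and 95.9% of it. The 3003 genes entered by their level in intestinal replicates 1 and 2, so ranks among them are a description and no test.

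Summed levels of markers of some other cell types were, like aqp-2 and aqp-7, lowest in intestinal replicate 3. Summed over 10 epidermis and seam markers, the intestinal libraries had 130, 164 and 76.9 CPM and the non-intestinal ones 615, 503 and 377 CPM. In intestinal replicate 3, 5 of these 10 were at 0, namely dpy-7, dpy-13, sqt-3, elt-1 and elt-6. For 9 muscle markers the sums were 3378, 1949 and 897 CPM in the intestinal libraries, against 5482, 2695 and 1975 CPM in the non-intestinal ones. For 5 pharynx markers they were 719, 532 and 36.1 CPM in the intestinal libraries, against 819, 1141 and 1002 CPM in the non-intestinal ones, and 12 germline markers had 28.3, 74.8 and 14.4 CPM, against 855, 885 and 824 CPM. Intestinal replicate 3 was the lowest in each of these sums. It was also the lowest for 10 neuron markers, which had 616, 889 and 257 CPM in the intestinal libraries, against 571, 501 and 367 CPM in the non-intestinal ones, a sum that was higher in intestinal replicates 1 and 2. For 3 coelomocyte markers it was the highest, with 8.73, 4.26 and 13.6 CPM in the intestinal libraries, against 4.78, 5.498 and 5.44 CPM in the non-intestinal ones. Among tested markers, 9 of 11 germline genes and 1 of 8 epidermal genes, nhr-23, were called lower, and 1 epidermal gene, elt-3, was called higher. Of 10 neuron genes, 1, egl-21, was called higher and none lower. None of 8 muscle, 5 pharynx and 2 coelomocyte genes was called. Of all tested genes, 13.5% were called higher and 7.64% lower. With the replicate block, 11 germline, 2 epidermal and 2 muscle genes were called lower, 1 neuron gene higher and no epidermal gene higher. In that fit 15.1% of all tested genes were called higher and 9.86% lower. The part of these cell types in the levels of aqp-2 and aqp-7 was not tested.

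**Figure D4:**
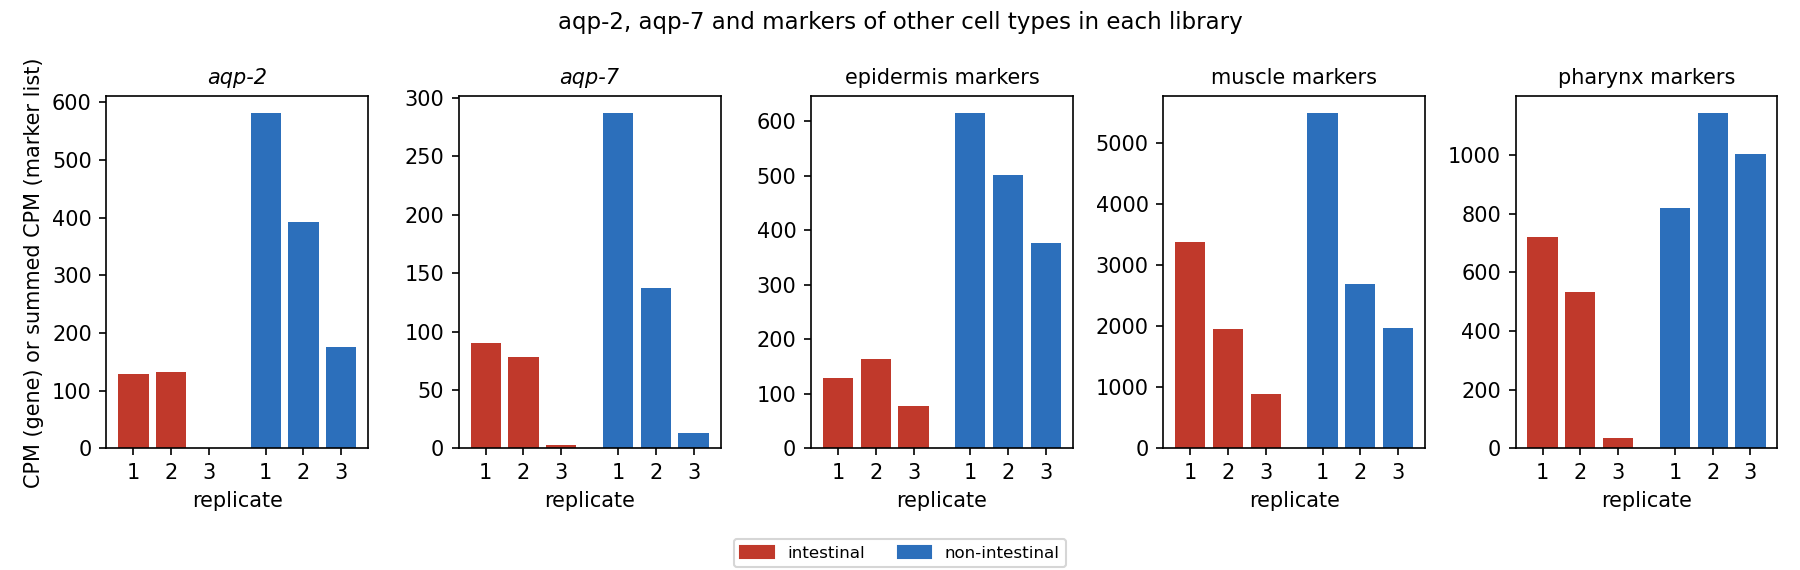
CPM of aqp-2 and aqp-7 and summed CPM of the epidermis and seam, muscle and pharynx markers in each library, intestinal libraries in red left of non-intestinal libraries in blue, with separate vertical scales. Intestinal replicate 3 has the lowest bar in all 5 panels, down to 0.801 CPM for aqp-2, 3.21 CPM for aqp-7 and 36.1 CPM for pharynx markers.

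Excretory canal markers, read beside aqp-8, did not move one way. Summed over 8 markers, the intestinal libraries had 197, 225 and 162 CPM and the non-intestinal ones 350, 189 and 230 CPM. Of 7 tested, pgp-12 and nhr-31 were called higher and exc-4 and exc-9 lower, beside 13.5% and 7.64% of all tested genes. The canal transporter gene pgp-12 (F22E10.1) had counts of 95, 41 and 11 in intestinal cells and 0 in each non-intestinal one. Against a floor of 3 counts over the summed non-intestinal libraries it was at least 48.2-fold higher in intestinal cells. This bound covers counting error only, and holds only if counts are of single molecules, which is not stated.

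The aquaporins called higher in intestinal cells kept more of their level in non-intestinal libraries than most gut markers did. The median of 14 intestine markers was 0.383%, 1.66% and 0.239% of the intestinal mean in non-intestinal replicates 1, 2 and 3. In the same libraries aqp-10 was at 11.4%, 18.2% and 4.08% of its own intestinal mean, and aqp-11 at 5.89%, 7.91% and 12.1%. Both lay above at least 13 of the 14 markers in each library, the exception being spl-1. Of these markers, 5, 1 and 7 had 0 counts in non-intestinal replicates 1, 2 and 3. In non-intestinal replicate 3 a floor of 3 counts was 1.62 CPM, and aqp-10 had 4.89 CPM. The marker elt-2, at 0 there, averaged 46.7 CPM in the intestinal set. For markers at 0, the median and the ranks in that library are therefore limited by depth. The gene aqp-1 was at 1.35%, 11.6% and 1.02%, and aqp-4 at 0%, 10.4% and 0%, both highest in non-intestinal replicate 2. Summed over the intestine markers, the non-intestinal libraries had 55.8, 207 and 184 CPM. The part of gut RNA in these levels was not tested.

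**Figure D5:**
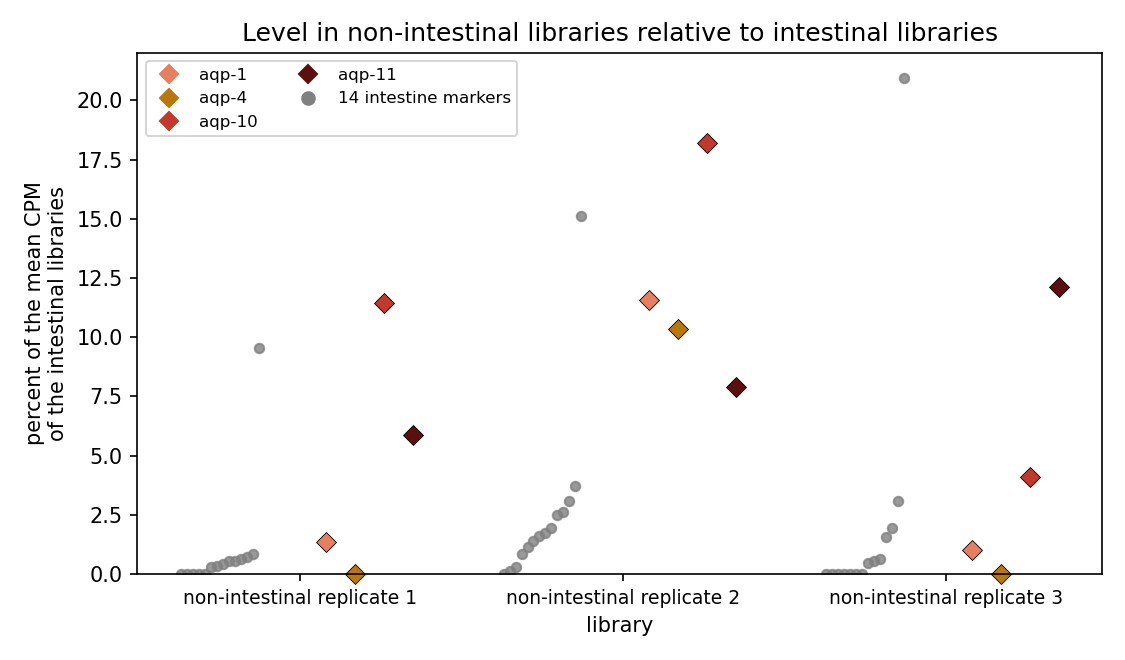
CPM in each non-intestinal library as a percent of the mean CPM of the 3 intestinal libraries, for aqp-1, aqp-4, aqp-10 and aqp-11 (diamonds) and 14 intestine markers (grey points, sorted by value within a library). In non-intestinal replicate 2 the 4 aqp genes lie between 7.91% and 18.2%, while the median marker is at 1.66%.

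The genes that followed each called aquaporin most closely over the 6 libraries were picked by Pearson's r among 9196 tested genes. For aqp-1 they were pssy-1, nduf-6 and C32F10.4, with r from 0.998 to 0.999. For aqp-10 they were gcsh-2, tag-120 and sdpn-1, also from 0.998 to 0.999, and for aqp-11 they were ZK550.6, F55G1.15 and F16H6.10, each at 0.998. These values describe 6 libraries that form groups and differ in depth, and r was over 0.95 for 430 genes with aqp-1, 469 with aqp-10 and 684 with aqp-11. The r does not weigh the size of a difference: for pssy-1 the log2 fold change was 1.45 (edgeR adjusted p = 0.11).

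Glycerol is the solute that aquaglyceroporins carry and the main osmolyte that worms make in high salt. Of 13 osmolyte and osmotic stress genes with a row, 11 were tested, 3 were called higher and none lower, where 13.5% of all tested genes were called higher and 7.64% lower. Their median log2 fold change was 2.13, against −0.34 for all tested genes. The called genes were gpdh-2 and pgph-2 of glycerol synthesis and hmit-1.1, a carrier of the osmolyte myo-inositol.

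The gene gpdh-2 (K11H3.1), a glycerol-3-phosphate dehydrogenase, had 186, 176 and 137 CPM in the intestinal libraries and 39.5, 41.3 and 21.7 CPM in the non-intestinal ones. The groups did not overlap, and the log2 fold change was 2.28 (edgeR adjusted p = 0.014, and 0.054 without intestinal replicate 1). The gene pgph-2 (F44E7.2), a phosphatase gene, averaged 156 ± 25.2 CPM in the intestinal set and 26.0 ± 10.8 CPM in the non-intestinal set (SD, n = 3 each). Its log2 fold change was 2.58 (edgeR adjusted p = 0.0098), and 3.21 without non-intestinal replicate 1. The gene hmit-1.1 (Y51A2D.4) averaged 18.7 ± 6.48 CPM in the intestinal set and 0.364 ± 0.328 CPM in the non-intestinal set (SD, n = 3 each). Its log2 fold change was 5.40 (edgeR adjusted p = 0.0066). The salt-induced dehydrogenase gene gpdh-1 (F47G4.3) had 12.8, 12.8 and 12.02 CPM in the intestinal libraries and 0.319, 3.45 and 4.35 CPM in the non-intestinal ones. Its groups did not overlap, but the log2 fold change of 2.25, with an SE of 1.07, did not pass (edgeR adjusted p = 0.17). Over 16 alternatives its adjusted p ranged from 0.048, by DESeq2, to 0.31, and it passed in that 1.

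Epithelia move water by moving ions, and a list of ion transporters was read beside the channels. In the table were 21 such genes, of which 16 were tested, 4 were called higher and 1 lower, beside the same 13.5% and 7.64% of all tested genes. Their median log2 fold change was −0.36, close to the −0.34 of all tested genes. The sodium pump genes eat-6 (B0365.3, catalytic subunit) and nkb-3 (F55F3.3, beta subunit) were called higher. For eat-6 the intestinal libraries had 1172, 1037 and 1095 CPM and the non-intestinal ones 157, 383 and 233 CPM. The groups were well apart, and the log2 fold change was 2.09 with an SE of 0.45 (edgeR adjusted p = 0.0083), and 2.85 without non-intestinal replicate 2.

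The beta subunit gene nkb-3 averaged 485 ± 341 CPM in the intestinal set and 62.3 ± 51.2 CPM in the non-intestinal set (SD, n = 3 each), and its log2 fold change was 2.96 (edgeR adjusted p = 0.016). It was 4.06 without non-intestinal replicate 1, and the call was lost without intestinal replicate 1 (2.27, edgeR adjusted p = 0.078). The beta subunit gene nkb-1 (C17E4.9) had a log2 fold change of 1.09 and did not pass (edgeR adjusted p = 0.19). It was 0.50 without intestinal replicate 1 and 1.53 without intestinal replicate 3, the 1 of 16 alternatives in which it passed (edgeR adjusted p = 0.60 and 0.0498). The gut sodium-proton exchanger gene nhx-2 (B0495.4), also one of the intestine markers, had counts of 593, 729 and 25 in intestinal cells, against 2, 1 and 0 in non-intestinal cells (edgeR adjusted p = 0.0012). The anion transporter gene abts-4 (R03E9.3) had 90.9, 60.6 and 127 CPM in the intestinal libraries and 21.7, 16.5 and 9.79 CPM in the non-intestinal ones. Its log2 fold change was 2.52 (edgeR adjusted p = 0.018, and 0.054 without intestinal replicate 1).

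The cation-chloride cotransporter gene nkcc-1 (Y37A1C.1) was the 1 transporter called lower. It had 15.04, 36.3 and 20.8 CPM in the intestinal libraries and 143, 147 and 206 CPM in the non-intestinal ones. The groups were well apart, and its log2 fold change was −2.77 with an SE of 0.59 (edgeR adjusted p = 0.0080).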

How the data were processed

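The authors deposited 1 table of raw counts per row for 6 libraries. Per the submitters' processing notes, STARsolo 2.7.10a and the builds WBcel235 and ce11 were used; strand use and use of molecular identifiers are not given in the sources used here. Of 15472 rows, 14605 were worm genes; the other rows (825 RIT rows, 41 spike-in RNAs and 1 reporter) held between 0.377% and 0.796% of all counts and were left out. Symbols came from RefSeq WBcel235 for 14387 genes, and gene models from Ensembl release 115 of WBcel235.

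The groups were compared with edgeR 4.0.16 in R 4.3.3 (TMM, robust quasi-likelihood F test, group as the only term, filterByExpr with a minimum count of 10 and minimum total of 15). Benjamini-Hochberg adjustment ran over 9203 genes, and SEs were derived from the F statistic. The fit was run on simulated data with 200 changed genes and the same dispersion for every gene. That run checks the code and does not give error rates for these libraries. Single values were compared by exact permutation tests in scipy 1.17.1, which are unadjusted.

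Replicate numbers were checked for pairing: deviations from group means correlated at 0.278, 0.157 and 0.279 for libraries of the same number, each over 0.1. For libraries of different numbers they correlated at −0.256 to 0.0695. By the limit of 0.1 the numbers count as pairing libraries, but the check cannot tell a shared origin from a shared depth. The reported fit and the permutation tests do not use the pairing; a fit with the replicate block was an alternative. The labels do not say what a number shares, and replicate 3 was the shallowest library of both groups. No 2 libraries of a group agreed within counting noise (chi-square 34.8 to 195 times its degrees of freedom).

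The members and the gene lists were chosen with earlier results of these data known. Named were all aqp genes; of the osmolyte and ion transport lists, the called genes and gpdh-1, gpdh-2, eat-6, nkb-1 and nhx-2; elt-2, act-5, ifb-2 and pgp-12 as checks of the labels; and the 3 genes most alike to each called aqp gene. Of the label checks, elt-2 and ifb-2 had log2 fold changes of 5.81 and 6.29 (edgeR adjusted p = 0.0046 and 0.00034). The canal marker pgp-12, planned as a check, was also higher in intestinal cells. Genes that overlap an aqp gene, and called genes of marker lists, were named after their values were seen. Alternatives were RLE or library totals, other filters, DESeq2 1.42.0, the replicate block, equal depth, no robust estimation, a threshold of 0.01 and leaving out libraries; leaving out both replicate 3 libraries was chosen after seeing the data.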

Additional observations from a re-analysis of the deposited data

How the results depend on the processing

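The count of 3 aqp genes called higher was 2 to 4 in the fits that left out 1 library, 4 without a filter, with the replicate block, by DESeq2 and without both replicate 3 libraries, and 1, aqp-11, at an adjusted p under 0.01. The count of 0 aqp genes called lower stayed 0 in the fits that left out 1 library and by DESeq2. Before adjustment, no aqp gene was lower at 0.05 in the reported edgeR fit. The gene aqp-2 was by DESeq2 and by edgeR without intestinal replicate 3, without non-intestinal replicate 3 and under library totals alone. Both aqp-2 and aqp-7 were without a filter, with the replicate block and without both replicate 3 libraries. For aqp-7 the unadjusted edgeR p-values there were 0.048, 0.018 and 0.040. The gene aqp-12, not tested in the reported fit, was in 3 of the edgeR fits that left out 1 library. It also was without a filter and without both replicate 3 libraries. The count of lower calls was 1, aqp-2, without a filter and with the replicate block, and 2, aqp-2 and aqp-12, without both replicate 3 libraries (edgeR adjusted p = 0.028 and 0.0499).

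Over all tested genes the total of 1949 calls was 3057 by DESeq2, 842 at an adjusted p under 0.01, and 986 to 1913 without 1 library, the lowest without intestinal replicate 1. The 1246 higher calls were 692 at 0.01 and 788 to 1393 without 1 library. The 703 lower calls were 1337 under library totals alone, 1379 by DESeq2, 150 at 0.01 and 198 to 647 without 1 library. Library totals alone moved the median over tested genes to −0.84, against −0.34 with TMM; the directions of aqp-1, aqp-2, aqp-4, aqp-7, aqp-10 and aqp-11 were the same in both.

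The log2 fold change of aqp-9 reversed to −0.54 under library totals alone, and −0.39 with the replicate block, and lay between −0.85 and 0.65 when 1 library was left out, negative without intestinal replicate 1. Its difference in mean CPM, 0.0566, was −1.69 under library totals alone, and from −2.08 to 2.08 when 1 library was left out. The same ranges ran from −0.1402 to 0.551 for aqp-5, from −0.0454 to 0.370 for aqp-6 and from −1.04 to 0.0768 for aqp-8, each turning once: without intestinal replicate 2, intestinal replicate 1 and non-intestinal replicate 1. The fit at equal depth did not test aqp-4 or aqp-9, which were under its filter. The cause of the other changes was not tested. Apart from the calls of aqp-4 and aqp-2, the replicate block changed no call among the aqp genes. With it, 4 osmolyte genes were called higher and 1 lower, and 5 ion transport genes higher and 2 lower, where 15.1% of all tested genes were called higher and 9.86% lower.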
